A study of Emberiza melanocephala with 15 samples.

Results

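The comparison described here sets 4 hypothalamus libraries of refractory blackheaded buntings against 4 of sensitive ones, taken at hours 10 and 14 after lights on, and these 8 are of 15 libraries in the series. They were chosen by state and hour from the labels and not by a measured value, but with earlier results of these data known. The estimated read counts of all transcripts were added up per assembled gene, and a gene entered the comparison when it had at least 5 reads in 4 or more of the 8 libraries, which 43934 of 317533 assembled genes did.

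The refractory birds were adult males caught from the wild and held on long days until they no longer responded to long light periods. The sensitive birds were adult males from the same source, held on short days and still responsive to light. Both were then released into an extended light period, and 2 birds of each state were sampled at each hour, with 1 library per bird from ribosomal RNA depleted, stranded total RNA. At both hours the refractory birds were still within the light period they were used to, while the sensitive birds were past theirs, so state and light history cannot be told apart. The p-values measure the spread between birds, with 2 birds per state and hour.

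Photoperiodic birds read day length with light-sensitive cells deep in the brain. In the sensitive state a long day raises thyrotropin from the pars tuberalis, which shifts thyroid hormone activation in the mediobasal hypothalamus and releases gonadotropin-releasing hormone. In the refractory state, which normally follows breeding, the gonads regress although the days are long, and only a spell of short days restores the response. The reference for these libraries was assembled from the reads themselves and the files do not pair its identifiers with gene names. The genes of this pathway, markers of hypothalamic cell types and any pathway list could therefore not be looked up, and the labelled tissue could not be checked against its markers.

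Across the series the assembly held 552023 transcripts in 317533 genes, of which 260905 had a single transcript, and libraries summed to between 3176062 and 9403923 estimated reads. Among the 8 birds, the refractory libraries summed to 5662986 and 4306137 reads at hour 10 and 7088920 and 5598600 reads at hour 14. The sensitive libraries summed to 7318462 and 5628882 reads at hour 10 and 5308744 and 5728786 reads at hour 14. Depth differed between the states by less than the spread between birds (exact permutation test of the means, two-sided, p = 0.686). A count of 0 in the deepest and the shallowest of the 8 allowed a level of up to 0.410 and 0.697 CPM (reads scaled to a common library total), where up to 3 reads are taken to be compatible with 0 and only counting error is covered.

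At hour 10 hypothalami of refractory birds gave reads for fewer assembled genes than those of sensitive birds, whereas at hour 14 they did not, and over both hours the states overlapped. The number of assembled genes with at least 5 reads was 39671 and 37582 in refractory birds at hour 10 and 43895 and 46195 in refractory birds at hour 14. It was 52225 and 49059 in sensitive birds at hour 10 and 43444 and 44699 in sensitive birds at hour 14. Both refractory birds thus lay below both sensitive birds at hour 10, whereas at hour 14 the order was mixed. In bulk tissue fewer cells of a type and less RNA per cell cannot be told apart, here and in every level given below.

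The mean number was 41836 ± 3917 in refractory birds and 47357 ± 4040 in sensitive birds (SD, n = 4 each), a difference of −5521 genes. This difference was larger than either SD. It was not resolved with 4 birds per state (exact permutation test, two-sided, p = 0.143 over all 70 splits and 0.278 with states permuted within hour). After every library was thinned to the depth of the shallowest, the means were 37931 ± 2587 in refractory birds and 41461 ± 1930 in sensitive birds (SD, n = 4 each). That difference of −3530 genes was also larger than either SD. It too was not resolved (exact permutation test, two-sided, p = 0.0857 over all splits and 0.167 within hour). The smallest values possible are 0.0286 and 0.0556, so with 4 birds per state the test cannot show that the states are alike. The mean fragment length, a rough sign of RNA quality, was 253 ± 4.15 nt in refractory birds and 254 ± 3.53 nt in sensitive birds (SD, n = 4 each).

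No assembled gene was present in 1 state alone by the minimum used. Of all assembled genes, 0 had at least 5 reads in all 4 birds of a state and none in the 4 of the other. At the weaker minimum of any reads at all, 92 of 317533 assembled genes were present in all refractory birds and absent from all sensitive ones. The reverse held for 550 of the 317533, present in all sensitive birds and absent from all refractory ones. Any reads at all were found for 122192.5 genes on average in sensitive birds and 103939.2 in refractory birds. The part of this in the 92 and the 550 was not tested. In the 7 birds of hours 18 and 22, 21 of the 92 were still at 0 in every sensitive bird, and 194 of the 550 were still at 0 in every refractory bird. Only 3 of the 92 had reads in all later refractory birds and 47 of the 550 in all later sensitive birds, and both conditions were met by 0 of the 92 and 4 of the 550.

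Birds of the same group resembled each other only slightly more than birds of different states. The distance between a pair of birds, taken as the median absolute difference in log2(CPM + 1) over the tested genes, averaged 0.429 between birds of different states at the same hour, with a range of 0.333 to 0.565 over 8 pairs. It averaged 0.380 between birds of the same state and hour, with a range of 0.320 to 0.424 over 4 pairs. The ranges overlapped, and the pair of sensitive birds at hour 10 was the most distant of the 4 pairs, while the pair of sensitive birds at hour 14 was the closest. Birds of different states that were also sampled at different hours lay 0.400 apart on average, no further than birds of different states at the same hour. Birds of the same state at different hours lay 0.399 apart, with a range of 0.324 to 0.487 over 8 pairs. Across hours, birds of 1 state were thus hardly closer than birds of different states.

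**Figure D1:**
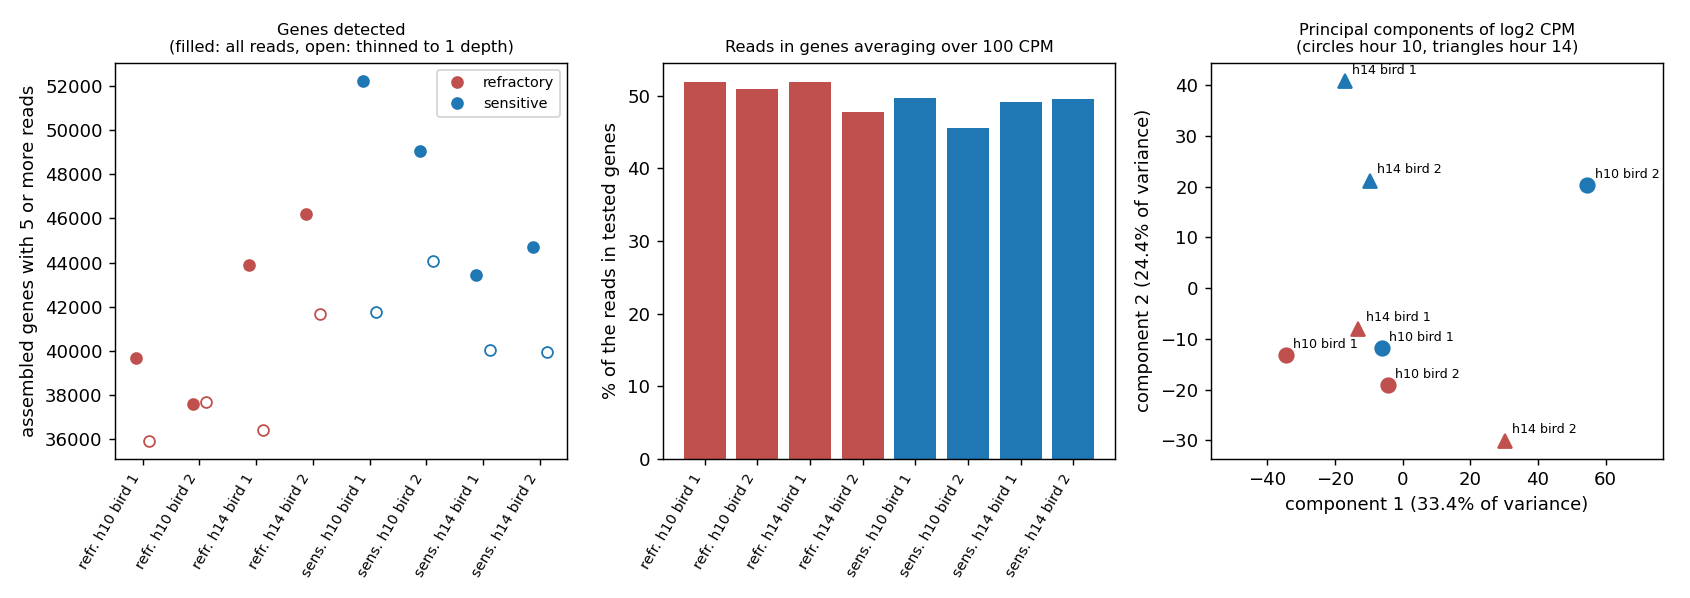
Left, assembled genes with at least 5 reads per bird before (filled) and after (open) thinning to a common depth; middle, the share of reads in tested genes that fell in genes averaging over 100 CPM; right, the first 2 principal components of log2 CPM, with refractory birds in red and sensitive birds in blue. At hour 10 both refractory birds had fewer genes detected than both sensitive birds, and sensitive hour 10 bird 2 and refractory hour 14 bird 2 stand furthest to the right on component 1.

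On principal components of the 15714 tested genes with at least 50 reads in 4 or more of the birds, the first component took 33.4% of the variance and did not separate the states. Sensitive hour 10 bird 2, at 54.6, and refractory hour 14 bird 2, at 30.3, stood apart from the other 6, which lay between −34.5 and −4.30. The second component, with 24.4% of the variance, held the refractory birds at −13.2 and −19.2 at hour 10 and −7.99 and −30.0 at hour 14. It held the sensitive birds at −11.8 and 20.2 at hour 10 and 40.8 and 21.2 at hour 14. Sensitive hour 10 bird 1 was thus the only sensitive bird among the refractory ones. Main counts that rest on it, on sensitive hour 10 bird 2 or on refractory hour 14 bird 2 are given with and without that bird. This was done where the count changes by over 1.5 times or turns direction, and not for every smaller class of genes.

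The main question was which genes differed between the states over both hours. At an adjusted p of 0.05 or below, 0 of 43934 genes (0%) passed in a quasi-likelihood fit by edgeR with hour as a term and p-values adjusted by Benjamini-Hochberg, the lowest adjusted p being 0.0686. Before adjustment 3432 genes (7.81% of those tested) had p under 0.05, 1613 of them (3.67%) higher and 1819 (4.14%) lower in refractory birds. The balance turned without sensitive hour 10 bird 2, with 1874 higher and 1583 lower, or without sensitive hour 10 bird 1, with 1944 higher and 1850 lower. It widened without refractory hour 14 bird 2, with 1867 higher and 2750 lower. Without TMM scaling factors (trimmed mean of M-values, which align libraries of different composition), 3571 genes reached that level, 936 higher and 2635 lower, and the median over all genes was −0.112 in place of −0.01 on the log2 scale. The DESeq2 Wald test on the same libraries called 69 genes (0.157%), 22 higher and 47 lower, and limma on log2(TPM + 1) called 0.

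The hour term of the same fit gave fewer genes than the state term. Hour 14 against hour 10 gave 0 calls (0%) in edgeR's quasi-likelihood fit, 1255 genes (2.86%) at an unadjusted p under 0.05 and 6 calls (0.0137%) by DESeq2. The 1255 genes became 2453 without refractory hour 14 bird 2 and 2071 without sensitive hour 10 bird 2, so this count rests on single birds. The spread between birds, as the biological coefficient of variation, was 35.0% around the means of hour and state and 32.3% around the means of the 4 groups. With that spread, the 95% interval of a state difference reached a median of 1.51 on the log2 scale to either side for genes averaging under 1 CPM, and 1.09 for those of 1 to 10 CPM. It reached 0.51 for genes of 10 to 100 CPM and 0.38 for genes over 100 CPM. Among scarce genes differences of around 2-fold were thus not detectable at this depth and number of birds. These intervals are for single genes, before adjustment over all genes tested. A difference beyond its interval could therefore still fail to pass, at any abundance.

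The 4 identifiers named for the state term were chosen for not overlapping between the states here, or after their values were seen. Their lack of overlap is thus a condition of the choice and not a result. TRINITY_DN73935_c0_g1, with 3 assembled transcripts of up to 355 nt, had 5.32 and 8.11 CPM in refractory birds at hour 10 and 14.2 and 11.2 CPM in refractory birds at hour 14, against 0.553 and 0 CPM in sensitive birds at hour 10 and 0.382 and 0.349 CPM in sensitive birds at hour 14. The sensitive birds had between 0 and 4 reads each, so this gene met the minimum of 5 reads through the refractory birds alone. The log2 fold change was 4.73 ± 0.54 (SE), with an adjusted p of 0.0686 in edgeR's quasi-likelihood fit. Pooled over birds, 217 reads in refractory birds against 8 in sensitive birds gave a ratio of 30.5. Its exact 95% interval of 15.2 to 71.6 covers counting error alone and not the spread between birds.

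TRINITY_DN96807_c2_g1, chosen after its values were seen, had 9 transcripts of up to 911 nt. It had 25.6 and 17.7 CPM in refractory birds at hour 10 and 29.98 and 7.90 CPM in refractory birds at hour 14, against 0.415 and 0.848 CPM in sensitive birds at hour 10 and 0.956 and 1.92 CPM in sensitive birds at hour 14. The lowest of the refractory birds was refractory hour 14 bird 2. The log2 fold change was 4.32 ± 0.52 (SE) with an adjusted p of 0.0686 in edgeR's quasi-likelihood fit, and without refractory hour 14 bird 2 this gene was the single call, at an adjusted p of 0.00289.

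Among lower genes, TRINITY_DN96183_c3_g1, with 1 transcript of 3165 nt, had the smallest p. It had 5.52 and 2.95 CPM in refractory birds at hour 10 and 4.41 and 6.32 CPM in refractory birds at hour 14, against 29.9 and 15.3 CPM in sensitive birds at hour 10 and 27.1 and 19.4 CPM in sensitive birds at hour 14. The refractory birds lay close together and all below the sensitive ones, with a log2 fold change of −2.25 ± 0.31 (SE) and an adjusted p of 0.141 in edgeR's quasi-likelihood fit, or −1.45 on the log2(TPM + 1) scale. TRINITY_DN93588_c0_g1, with 1 transcript of 697 nt and also chosen after its values were seen, had 1.18 and 1.97 CPM in refractory birds at hour 10 and 5.17 and 6.15 CPM in refractory birds at hour 14, against 8.44 and 9.33 CPM in sensitive birds at hour 10 and 15.3 and 18.7 CPM in sensitive birds at hour 14. This gene was lower at hour 10 than at hour 14 in both states and lower in refractory birds at either hour, with a log2 fold change of −1.97 ± 0.31 (SE) and an adjusted p of 0.387 in edgeR's quasi-likelihood fit.

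**Figure D2:**
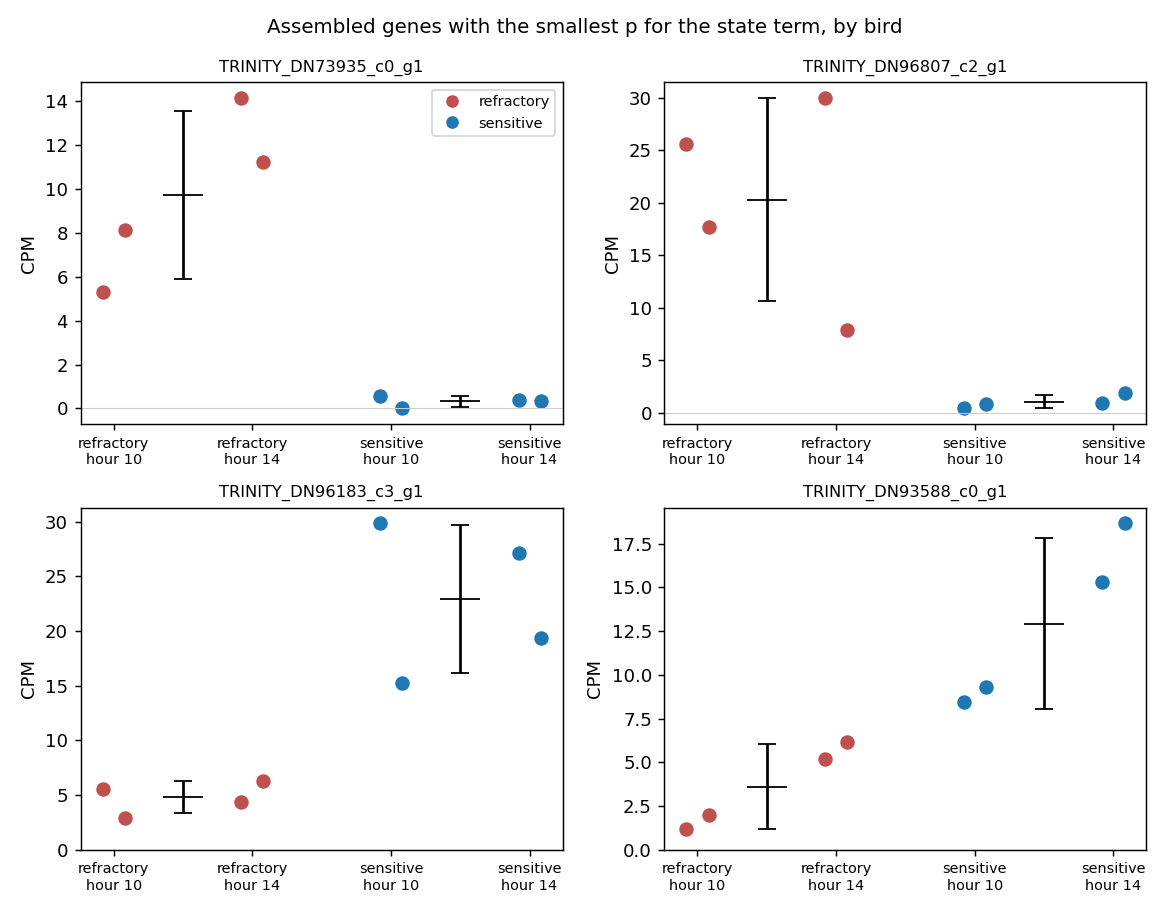
CPM per bird of the 4 assembled genes named for the state term, refractory birds (red) left and sensitive birds (blue) right, at hours 10 and 14; the horizontal marks with bars are the mean ± SD of the 4 birds of a state. In each panel the birds of the states do not overlap, which was a condition of the choice or known when the gene was chosen. The sensitive birds of the upper left gene have at most 0.553 CPM.

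The gene of the third smallest p had a smaller but tighter difference. This assembled gene, with 3 transcripts of up to 570 nt, had 42.5 and 37.1 CPM in refractory birds at hour 10 and 38.8 and 30.2 CPM in refractory birds at hour 14, against 11.2 and 16.1 CPM in sensitive birds at hour 10 and 10.7 and 9.42 CPM in sensitive birds at hour 14. Its mean was 37.2 ± 5.17 CPM in refractory birds and 11.9 ± 2.93 CPM in sensitive birds (SD, n = 4 each), and the log2 fold change of 1.66 ± 0.21 (SE) had an adjusted p of 0.0686 in edgeR's quasi-likelihood fit. With all 15 libraries in a single model of 8 groups it was the single call of the same contrast, at an adjusted p of 0.0271.

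Without sensitive hour 10 bird 2 there were 5 calls for the state term, 2 higher and 3 lower, and these included TRINITY_DN73935_c0_g1, TRINITY_DN96183_c3_g1 and the third gene. Without refractory hour 10 bird 2 there was 1 call, a higher gene, and without refractory hour 10 bird 1, refractory hour 14 bird 1, sensitive hour 10 bird 1 or either sensitive bird of hour 14 there were 0.

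The 30 genes with the smallest p for the state term were 15 higher and 15 lower, and 28 of them did not overlap between the states, beside 5.31% of all tested genes. Their absolute log2 fold changes lay between 0.83 and 4.73, and 22 exceeded 2-fold. A small p in these same birds favours both a lack of overlap and a large difference, so these counts follow from the choice and are not a result. Among all tested genes, the estimate exceeded 2-fold in 3610, of which 908 were higher in refractory birds. The median absolute log2 fold change over all tested genes was 0.30. Of the 3610 genes, 722 averaged under 1 CPM and 2728 from 1 to 10 CPM. Another 148 averaged 10 to 100 CPM and 12 over 100 CPM. In the classes under 10 CPM the median interval given above reached 1.51 and 1.09 to either side, so a 2-fold estimate lies within it. How the 908 divide among the classes was not tested.

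The levels of 2331 genes (5.31% of those tested) did not overlap between the states. All refractory birds lay above all sensitive ones in 1114 (2.54%) and below them in 1217 (2.77%). Without sensitive hour 10 bird 1 the counts were 2493 above and 2192 below, and without sensitive hour 10 bird 2 they were 2057 and 1895. Without refractory hour 14 bird 2 they were 2335 and 2710. With 1 bird fewer an overlap is less likely by order alone, so these counts are not directly comparable. With 4 birds against 4 in random order, a share of 0.0286 of genes would not overlap by order alone. The 2331 genes are thus not that many state differences. At hour 10 alone 17975 genes (40.9%) and at hour 14 alone 18193 genes (41.4%) did not overlap between 2 birds and 2 birds. Of all tested genes, 3827 (8.711%) were separated at both hours in the same direction and 3253 (7.404%) at both hours in opposite directions. With 2 birds against 2, many genes fail to overlap by order alone. The counts at single hours and at both hours therefore do not show that many state differences.

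At hour 10 the comparison of the states gave 0 calls (0%) in edgeR's quasi-likelihood fit in a model of the 4 groups, with a smallest adjusted p of 0.327. At an unadjusted p under 0.05 there were 4462 genes (10.2%), 1721 higher and 2741 lower in refractory birds, while DESeq2 called 96 (0.219%), 51 higher and 45 lower, and limma on log2(TPM + 1) called 0. The 4462 genes became 7145 (3411 higher and 3734 lower) without sensitive hour 10 bird 1 and 2659 (1067 higher and 1592 lower) without sensitive hour 10 bird 2, and 2492 without refractory hour 10 bird 1. Without sensitive hour 10 bird 1, which leaves 1 sensitive bird that is assumed to vary like the other groups, 351 genes passed, 155 higher and 196 lower. In 174 of these 351 genes the bird left out lay between the refractory birds and sensitive hour 10 bird 2. Without sensitive hour 10 bird 2 only 2 genes passed, and without refractory hour 10 bird 1 only 1.

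The gene higher at hour 10 by the rule for named genes was TRINITY_DN95439_c1_g2, with 2 transcripts of up to 408 nt. It had 156 and 130 CPM in refractory birds at hour 10, against 39.4 and 22.7 CPM in sensitive birds at hour 10. At hour 14 it had 47.8 and 33.4 CPM in refractory birds, against 32.9 and 35.4 CPM in sensitive birds. Of these 8 birds only the refractory ones of hour 10 stood high, with a log2 fold change of 2.195 ± 0.301 (SE) and an adjusted p of 0.327 in edgeR's quasi-likelihood fit, beside a log2 fold change of 0.25 ± 0.29 (SE) at hour 14 between birds that overlapped.

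The gene lower at hour 10 was TRINITY_DN99054_c1_g5, with 1 transcript of 1598 nt. It had 0.788 and 1.23 CPM in refractory birds at hour 10, from 4 and 5 reads, against 8.86 and 27.8 CPM in sensitive birds at hour 10. At hour 14 it had 7.15 and 10.2 CPM in refractory birds, against 5.54 and 4.71 CPM in sensitive birds. The birds of the states did not overlap at either hour but stood in opposite order, with a log2 fold change of −4.17 ± 0.65 (SE) at hour 10 and an adjusted p of 0.327 in edgeR's quasi-likelihood fit, or −2.42 on the log2(TPM + 1) scale.

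At hour 14 there were again 0 calls (0%) in edgeR's quasi-likelihood fit, with a smallest adjusted p of 0.2998. At an unadjusted p under 0.05 there were 3537 genes (8.05%), 1953 higher and 1584 lower in refractory birds, and DESeq2 called 82 (0.187%), 45 higher and 37 lower, whereas limma on log2(TPM + 1) called 0. The 3537 genes became 1894 without refractory hour 14 bird 2, when 766 were higher and 1128 lower so that the balance turned, and 1578 without sensitive hour 14 bird 1. In a fit of the 4 libraries of hour 14 alone, 6 genes passed, 2 higher and 4 lower. Leaving out 1 bird gave at most 2 calls, reached without sensitive hour 10 bird 1, sensitive hour 10 bird 2, sensitive hour 14 bird 1 or refractory hour 14 bird 2.

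TRINITY_DN97424_c2_g1, with 2 transcripts of up to 2332 nt, was the gene higher at hour 14. It had 198 and 263 CPM in refractory birds at hour 14, against 73.2 and 85.8 CPM in sensitive birds at hour 14. At hour 10 it had 175 and 218 CPM in refractory birds, against 178 and 175 CPM in sensitive birds. The sensitive birds of hour 14 alone stood low, so that the log2 fold change was 1.53 ± 0.23 (SE) at hour 14, with an adjusted p of 0.2998 in edgeR's quasi-likelihood fit, and 0.15 ± 0.22 (SE) at hour 10.

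TRINITY_DN97395_c1_g1, with 18 transcripts of up to 2646 nt, was the gene lower at hour 14. It had 7.76 and 7.37 CPM in refractory birds at hour 14, against 28.3 and 45.9 CPM in sensitive birds at hour 14. At hour 10 it had 10.2 and 13.03 CPM in refractory birds, against 11.8 and 14.2 CPM in sensitive birds. The sensitive birds of hour 14 stood high above the other 6, with a log2 fold change of −2.29 ± 0.34 (SE) at hour 14, an adjusted p of 0.2998 in edgeR's quasi-likelihood fit, and a log2 fold change of −0.16 ± 0.34 (SE) at hour 10.

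Whether the state difference itself differed between the hours was tested by the interaction. It gave 0 calls (0%) in edgeR's quasi-likelihood fit, 4126 genes (9.39%) at an unadjusted p under 0.05, 43 calls (0.0979%) by DESeq2 and 0 by limma on log2(TPM + 1). The 4126 genes became 6420 without sensitive hour 10 bird 1, 2576 without refractory hour 10 bird 1, 2419 without sensitive hour 14 bird 1 and 1943 without refractory hour 14 bird 2, so that this count too rests on single birds. Without sensitive hour 10 bird 1, 13 genes passed, 9 with a positive and 4 with a negative interaction, and without sensitive hour 10 bird 2 or refractory hour 14 bird 2 there was 1 call each.

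The gene with the smallest interaction p, TRINITY_DN93474_c0_g2, had 8 transcripts of up to 2014 nt. It had 0.985 and 0.738 CPM in refractory birds at hour 10, against 8.99 and 7.29 CPM in sensitive birds at hour 10. At hour 14 it had 5.02 and 4.57 CPM in refractory birds, against 0.573 and 0.698 CPM in sensitive birds. The state that was high at hour 10 was low at hour 14, the 4 low birds having 3 to 5 reads each, and the interaction was 6.07 ± 0.80 (SE) on the log2 scale with an adjusted p of 0.352 in edgeR's quasi-likelihood fit. On the log2(TPM + 1) scale, which shrinks differences between low levels, it was 2.90.

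TRINITY_DN83774_c0_g2, with 4 transcripts of up to 719 nt, had the smallest p of a negative interaction. It had 111 and 72.8 CPM in refractory birds at hour 10, against 30.4 and 25.4 CPM in sensitive birds at hour 10. At hour 14 it had 37.1 and 51.6 CPM in refractory birds, against 79.3 and 80.4 CPM in sensitive birds. Here the refractory birds were high at hour 10 and the sensitive birds at hour 14, with no overlap at either hour and an interaction of −2.57 ± 0.39 (SE) with an adjusted p of 0.499 in edgeR's quasi-likelihood fit.

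Over all tested genes the state differences at hours 10 and 14 were uncorrelated in these birds. Across the 43934 genes, Pearson's r between the log2 fold changes of the hours, which share no bird, was −0.006 and Spearman's rho −0.017, and 48.9% of the genes had the same sign at both. Among the 15714 genes with at least 50 reads in 4 or more birds r was −0.023, and leaving out each bird in turn gave values between −0.101, without refractory hour 14 bird 1, and 0.161, without refractory hour 14 bird 2. The jackknife SE of r over the 8 birds was 0.193, so these birds do not settle whether the differences of the 2 hours are alike or unlike. Genes are not independent replicates, and these values are given as a description.

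**Figure D3:**
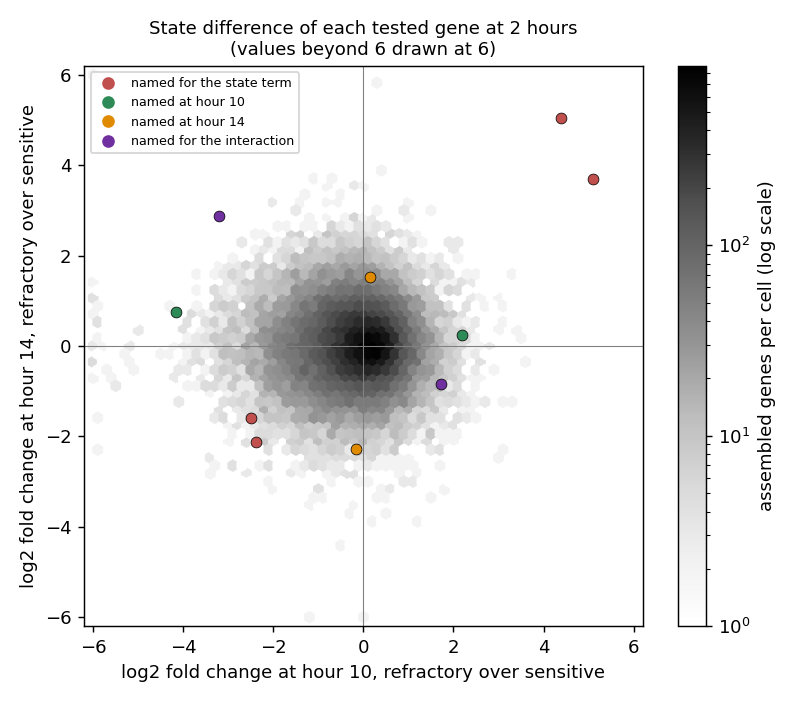
Log2 fold change of refractory over sensitive birds at hour 10 (horizontal) and at hour 14 (vertical) for the 43934 tested genes, as grey cells whose darkness is the number of genes on a log scale; coloured points are the genes named in the text. The cloud has no slant, with r = −0.006, and the genes named for the state term lie in the lower left and upper right, those named for the interaction in the other corners.

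The state difference of hours 10 and 14 was set beside that of hours 18 and 22, from 3 refractory and 4 sensitive birds that the first did not use. In those birds the state term gave 0 calls (0%) in edgeR's quasi-likelihood fit, 2364 genes (5.38%) at an unadjusted p under 0.05, and 888 calls (2.02%) when hour 18 was taken alone. DESeq2 and limma were not run there. The refractory libraries of hour 18 were the shallowest of the series, with 3441451 and 3176062 reads and the shortest mean fragments, of 231 and 209 nt. The sensitive ones of hour 18 had 5072773 and 4809916 reads and 255 and 251 nt. The part of this in the hour 18 values was not tested. Across 43934 genes, the log2 fold changes at hours 10 and 14 and at hours 18 and 22 had r = 0.173 and rho = 0.233, with the same sign in 59.1% of genes. Leaving out 1 bird gave r between 0.0922, without refractory hour 18 bird 1, and 0.241, without refractory hour 22 bird 1.

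The likeness was closer for abundant genes, with r = 0.392 across the 2054 genes averaging over 100 CPM and 0.0509 across the 3722 averaging under 1 CPM. It was 0.167 for hour 14 with the later hours and 0.0758 for hour 10 with the later hours. Of the 3432 genes at an unadjusted p under 0.05 at hours 10 and 14, 2608 (76.0%) had the same sign at hours 18 and 22, and of the 30 genes with the smallest p, 24 had the same sign.

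Few of the genes that did not overlap at hours 10 and 14 were also separated in the later birds. Of the 1114 genes with all refractory birds above, 48 (4.31%) were again above in all later refractory birds and 8 were below. Of the 1217 genes with all refractory birds below, 58 (4.77%) were again below and 11 were above. Among all tested genes 728 (1.66%) were above and 896 (2.04%) below, together 3.70% of them.

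The third gene held its order in the later birds, with 53.8 and 58.0 CPM at hour 18 and 34.6 CPM at hour 22 in refractory birds, against 16.3 and 13.5 CPM at hour 18 beside 25.6 and 30.7 CPM at hour 22 in sensitive birds. The states did not overlap, although its log2 fold change of 1.29 there had an adjusted p of 0.816 in edgeR's quasi-likelihood fit. TRINITY_DN73935_c0_g1 had 0 and 1.06 CPM at hour 18 and 30.3 CPM at hour 22 in refractory birds, against 0 and 1.21 CPM at hour 18 beside 0 and 0.653 CPM at hour 22 in sensitive birds, so that only the refractory bird of hour 22 was high.

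TRINITY_DN96807_c2_g1 had 26.6 and 1.77 CPM at hour 18 and 0 CPM at hour 22 in refractory birds, against 2.98 and 57.5 CPM at hour 18 beside 0.249 and 0.218 CPM at hour 22 in sensitive birds. The highest level of this gene in the later birds was thus in a sensitive one. TRINITY_DN96183_c3_g1 had 1.62 and 0 CPM at hour 18 and 57.5 CPM at hour 22 in refractory birds, against 12.7 and 19.3 CPM at hour 18 beside 62.7 and 20.6 CPM at hour 22 in sensitive birds, with the states apart at hour 18 and overlapping at hour 22.

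The direction of the state difference varied with how abundant a gene was. Among the 2054 genes averaging over 100 CPM the median log2 fold change was 0.16 and 74.3% were higher in refractory birds, with 300 higher and 42 lower at an unadjusted p under 0.05. Among the 12551 genes of 10 to 100 CPM the median was 0.07 and among the 25607 genes of 1 to 10 CPM it was −0.09. Among the 3722 genes under 1 CPM the median was −0.25, and 25 were higher and 164 lower at an unadjusted p under 0.05. Genes this scarce could enter through the 4 birds of 1 state alone. More genes reached 5 reads in sensitive birds, with means of 47357 against 41836. The part of this filter in the medians of the scarcer classes was not tested.

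These medians depend on how libraries are scaled. Without TMM factors they were 0.05, −0.03, −0.19 and −0.35 from the most to the least abundant class, so that genes of 10 to 100 CPM changed side while the order of the classes was kept. Over 100 CPM, 59.3% were then higher in refractory birds, with 181 higher and 92 lower at an unadjusted p under 0.05. The 300 higher genes with TMM factors became 139 without refractory hour 14 bird 1, 164 without sensitive hour 14 bird 1, 174 and 189 without refractory hour 10 bird 1 or bird 2, and 474 without refractory hour 14 bird 2, and in each case they outnumbered the lower ones. The order was also kept at hour 10 and without sensitive hour 10 bird 2, with medians of 0.10 over 100 CPM and −0.21 under 1 CPM for the state term. It was not fully kept at hours 18 and 22, where the medians were 0.01 over 100 CPM and 0.02 at 10 to 100 CPM. There 52.2% of genes over 100 CPM were higher in refractory birds. The scarcer classes stayed lower at those hours, with medians of −0.09 at 1 to 10 CPM and −0.195 under 1 CPM.

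The gradient was larger at hour 10, where the medians were 0.29 over 100 CPM and −0.45 under 1 CPM, than at hour 14, where they were 0.04 and −0.12. Without refractory hour 14 bird 2 the medians at hour 14 were 0.13 and −0.25, and without sensitive hour 10 bird 2 those at hour 10 were 0.20 and −0.38. The difference between the hours was not tested.

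**Figure D4:**
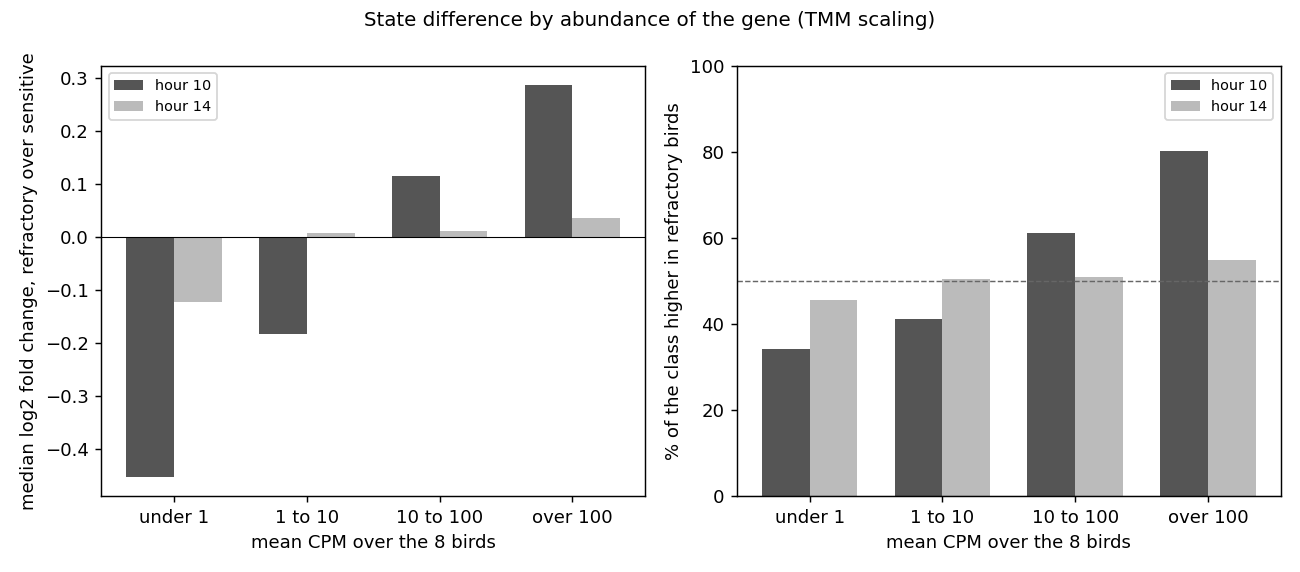
Median log2 fold change of refractory over sensitive birds (left) and share of genes higher in refractory birds (right) by mean CPM of the gene, at hour 10 (dark) and hour 14 (light); the dashed line is at equal shares. At hour 10 the bars climb with abundance to 0.29 and 80.2% over 100 CPM, and at hour 14 they end at 0.04 and 54.9%.

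Genes averaging over 100 CPM took 52.0% and 51.0% of the reads in tested genes in refractory birds at hour 10 and 51.9% and 47.8% in refractory birds at hour 14, against 49.7% and 45.5% in sensitive birds at hour 10 and 49.1% and 49.6% in sensitive birds at hour 14. Refractory hour 14 bird 2 lay among the sensitive birds, and sensitive hour 10 bird 2 lay lowest. The number of genes detected moved the opposite way to this share at hour 10, and its part in the gradient was not tested.

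Single transcripts were compared in the same way. Of 62315 transcripts with at least 5 reads in 4 or more birds, 0 (0%) passed edgeR's quasi-likelihood test, with a smallest adjusted p of 0.0735, and 2512 (4.03%) had an unadjusted p under 0.05. DESeq2 called 562 (0.902%), 262 higher and 300 lower, while limma was not run on transcripts. Of the 562, 479 were in assembled genes whose sum differed by less than 2-fold, as were 59423 of all 62315 tested transcripts. The called transcripts were thus not in such genes more often than tested transcripts at large. The spread between birds was 78.5% for transcripts, against 35.0% for genes.

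The levels of 2808 transcripts (4.51%) did not overlap between the states, where order alone would separate a share of 0.0286. Among 11591 assembled genes with at least 2 tested transcripts, 63 (0.544%) had a transcript with all refractory birds above and another with all refractory birds below. In 48 of these 63 the sum over the gene overlapped between the states. Of all 11591 genes only 726 had a sum that did not overlap, so an overlapping sum was usual.

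TRINITY_DN87240_c1_g1_i4, a transcript of 3569 nt, had 76.0 and 70.6 CPM in refractory birds at hour 10 and 37.4 and 39.1 CPM in refractory birds at hour 14, against 0.437 and 0.179 CPM in sensitive birds at hour 10 and 0.398 and 0.729 CPM in sensitive birds at hour 14. Another transcript of the same assembled gene, TRINITY_DN87240_c1_g1_i1 of 3555 nt, had 0.400 and 0.994 CPM in refractory birds at hour 10 and 36.2 and 35.0 CPM in refractory birds at hour 14, against 63.2 and 67.8 CPM in sensitive birds at hour 10 and 61.1 and 72.3 CPM in sensitive birds at hour 14. The transcripts differ by 14 nt in length, and at hour 10 nearly all reads lay on the longer in refractory birds and on the shorter in sensitive birds, while refractory birds at hour 14 had about as much of each.

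The sum over the gene stayed between 71.5 and 76.4 CPM in refractory birds, against 61.5 and 76.5 CPM in sensitive birds, with a log2 fold change of 0.15 ± 0.15 (SE). For the transcript itself the log2 fold change was 6.86 ± 0.50 (SE) with an adjusted p of 0.0735 in edgeR's quasi-likelihood fit. Pooled over birds, 1113 reads in refractory birds against 10 in sensitive birds gave a ratio of 123. Its exact 95% interval of 66.6 to 257 covers counting error alone and not the spread between birds. Reads of transcripts that differ by so little are shared out by kallisto's estimate, so how they divide within an assembled gene is uncertain.

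The division did not follow state in the later birds. The transcript of 3569 nt made up 0.901% and 92.9% of the gene's sum at hour 18 and 0.375% at hour 22 in refractory birds, against 0% and 0.330% at hour 18 and 100% and 9.44% at hour 22 in sensitive birds. A bird of either state could thus have nearly all of its reads on either transcript.

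TRINITY_DN91003_c2_g2_i1, a transcript of 3545 nt, had 0.200 and 0 CPM in refractory birds at hour 10 and 0 and 0 CPM in refractory birds at hour 14, against 86.9 and 40.5 CPM in sensitive birds at hour 10 and 48.0 and 50.8 CPM in sensitive birds at hour 14. It was nearly absent from these refractory birds, with 1 read against 1343 in sensitive birds when pooled over birds. That is a ratio of 1220 of sensitive over refractory. Its exact 95% interval of 218 to 48100 covers counting error alone and not the spread between birds. The gene as a whole ran the other way, its summed level lying between 87.9 and 134 CPM in the refractory birds. Sums of the sensitive birds spanned 43.2 to 132 CPM, so the states overlapped. The log2 fold change of the sum was 0.69 ± 0.28 (SE), with an adjusted p of 0.601 in edgeR's quasi-likelihood fit. For the transcript itself the adjusted p was 0.0735 by edgeR's quasi-likelihood test.

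TRINITY_DN91003_c2_g2_i3, which is 13 nt longer, had 134 and 114 CPM in refractory birds at hour 10 and 88.4 and 85.2 CPM in refractory birds at hour 14, against 37.9 and 0.179 CPM in sensitive birds at hour 10 and 0.398 and 0.729 CPM in sensitive birds at hour 14. Of the sensitive birds of hours 10 and 14, hour 10 bird 1 alone had over 1 CPM of both transcripts. At hour 18 both refractory birds had 98.6% and 98.7% of the gene's sum on the shorter transcript, against 0% in both sensitive birds, which is the reverse of hours 10 and 14. At hour 22 the shorter transcript made up 0% of the sum in the refractory bird, against 95.4% and 3.09% in the sensitive birds, so the later birds followed neither pattern throughout.

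**Figure D5:**
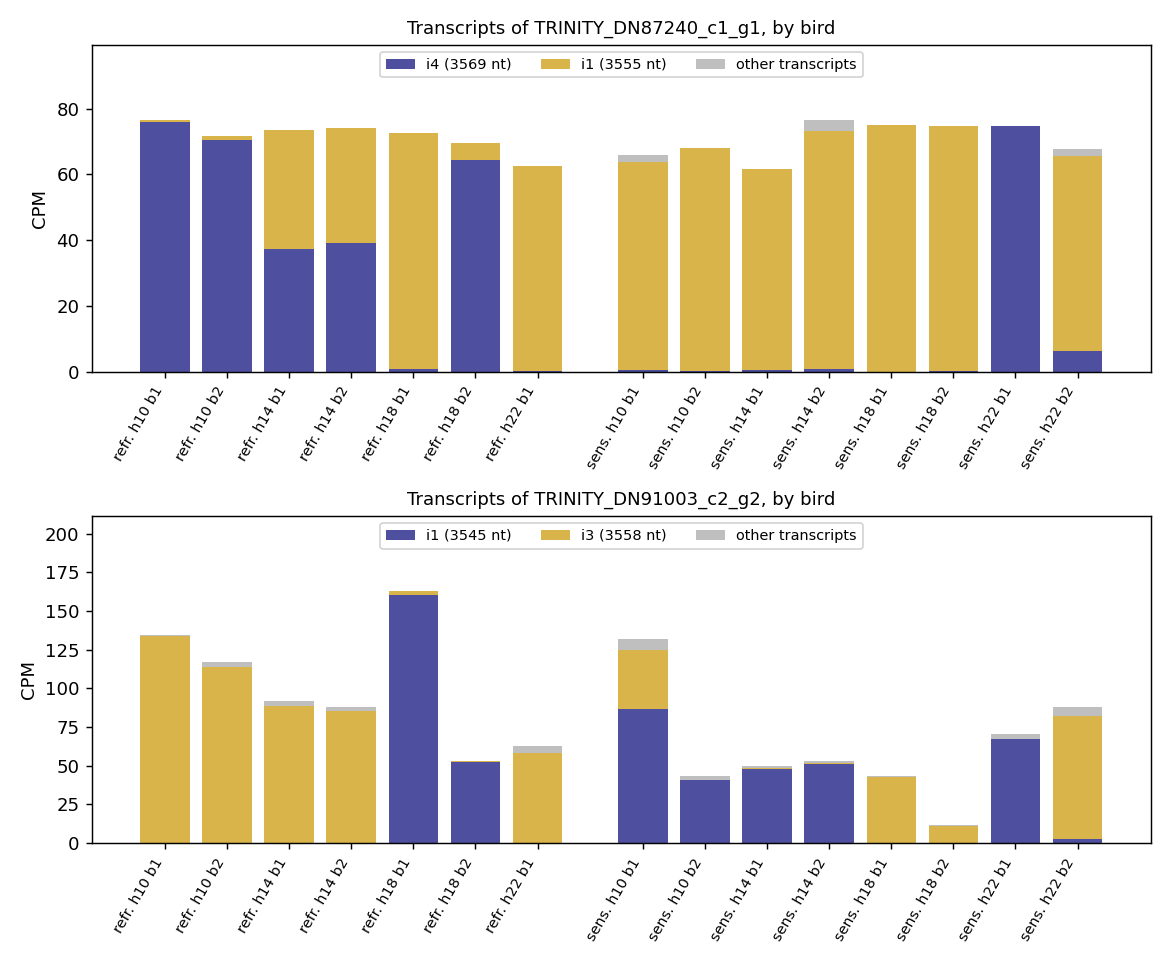
CPM of the transcripts of 2 assembled genes in all 15 birds, as stacked bars, refractory birds left and sensitive birds right, by hour (h) and bird (b). At hours 10 and 14 the blue transcript of the upper gene is seen in refractory birds and that of the lower gene in sensitive birds, while at hours 18 and 22 birds of either state carry either transcript.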

How the data were processed

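Hypothalamus RNA of single birds was sequenced as paired-end reads on an Illumina HiSeq instrument. The authors trimmed reads with Trimmomatic, assembled them with Trinity, reduced redundancy with CD-HIT and pseudo-aligned each library with kallisto (version not given in the sources used here) to 1 index of all libraries. The deposited files give, per assembled transcript, its length and effective length in nucleotides, an estimated count and the TPM (abundance scaled by length and library total) that the authors derived from it. Counts were not normalized by the authors, while TPM is relative to length and to the library.

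Estimated counts were summed per assembled gene (the identifier without its transcript ending) and rounded to whole numbers, which moved library totals by at most 0.00197%. Genes with at least 5 counts in 4 or more of the 8 libraries were kept, and they held 96.4% to 98.3% of the counts. edgeR 4.0.16 in R 4.3.3 fitted quasi-likelihood models (glmQLFit, glmQLFTest) with TMM factors, either with hour and state as terms or with 4 groups, and p-values were adjusted by Benjamini-Hochberg over all features tested and called at 0.05. DESeq2 1.42.0 and limma 3.58.1 on log2(TPM + 1) or log2(TPM + 0.1) were alternatives, beside another scaling, other filters, thinning of the rounded counts to 4306077, other sets of libraries, a replicate block and leaving out each bird. SEs are the log2 fold change over the root of the F statistic. CPM of the later birds was scaled over all 15 libraries. Plots used matplotlib 3.10.9 under Python 3.11.15. The tests were tested on simulated data.

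Since no identifier is paired with a name, at most 2 identifiers per direction and comparison are printed. By rule these are calls with the smallest p whose groups do not overlap or, where a direction has none, the gene with the smallest p whose groups do not overlap (no overlap asked for the interaction; transcripts only where the gene's sum differs under 2-fold). Those chosen after their values were seen are marked so. The libraries compared and all rules were chosen with earlier results of these data known. The study's own annotation and the qPCR of its other experiment were not used here.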

Additional observations from a re-analysis of the deposited data

Results flagged for a closer look

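Within each state of 4 birds, 36 sets of values (depth, genes detected, fragment length, shares of the most abundant genes and the levels of the named features) were searched for a bird far from its 3 companions, by the gap to the nearest bird over the whole range. Chance flags about 5% of such sets, and 2 were found. The 10 most abundant genes of refractory hour 14 bird 2 took 3.04% of its reads, whereas those of each other refractory bird took 4.35% to 4.55%. This bird also stands apart on the first principal component. TRINITY_DN91003_c2_g2_i1 had 0.200 CPM in refractory hour 10 bird 1, from a single read, and 0 CPM in the other refractory birds.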

How the results depend on the processing

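Counts of calls at an adjusted p of 0.05 or below differed with the tool and the filter. DESeq2 called 69 genes for state, 96 for state at hour 10, 82 at hour 14, 43 for the interaction, 6 for hour and 562 transcripts for state, where edgeR's quasi-likelihood test called 0 of each. With no filter on low counts edgeR called 444, 493, 428 and 414 genes for state, hour 10, hour 14 and the interaction. limma on log2(TPM + 0.1) called 1 for state and 1 at hour 10, thinning 1 for state, all 15 libraries in 1 model 1 for state, and the 4 libraries of hour 14 alone 6. Leaving out 1 bird gave 0 to 5 calls for state, 0 to 351 at hour 10, 0 to 2 at hour 14, 0 to 13 for the interaction, and 0 in every case for hour and for transcripts. The agreement of the hours ranged from −0.101 to 0.161 on leaving out a bird. At hours 18 and 22, hour 18 alone gave 888 calls in place of 0. Genes in 1 state alone numbered 642 at any count above 0, in place of 0. The causes were not tested.

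With bird number as a replicate block, 2 genes passed for state, both lower in refractory birds and neither among the named ones, and for state at hour 10, state at hour 14 and the interaction the block left the count at 0. It was not run for hour or for transcripts. The bird numbers were not shown to pair the birds, because the correlation of deviations between groups, across 15714 genes, lay between −0.024 and 0.309. The correlation was above 0 in 5 of the 6 pairs of groups, but these values share the same 4 groups and are not independent. Bird 1 had the deeper library in every group but sensitive hour 14, and the part of depth in the correlations was not tested. The labels do not say what the bird number stands for.

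Of 214 refits of the named features, 186 kept direction and side of the threshold, 28 passed it with the same direction, and 0 reversed. The features were picked by their values in these same birds, so the count of 0 reversed is no independent check. Effects under about 2-fold in genes below 10 CPM lie within the error of 4 birds per state. Adjustment over all tested genes asks for more than this error at any abundance.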
